A study of Rattus norvegicus with 8 samples.

Results

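Imprinted genes are genes of which mainly the copy inherited from 1 parent is transcribed. A list of 40 such genes was followed through 4 steps of rat germ cell differentiation in culture, and 39 of them have a row under their symbol among the 22228 named genes of the expression table. H13 has no row under that symbol. From knowledge of the mouse, 20 of the 39 are expressed from the paternal copy and 19 from the maternal copy. That origin is limited to certain tissues, or is only a preference, for some of them (among others Grb10, Ube3a, Gnas, Copg2, Blcap, Trappc9, Commd1, Atp10a, Cd81, Tssc4 and Dio3). RNA totals do not separate the parental copies, so every value below is the sum of both.

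In mammals the choice of the parental copy rests on DNA methylation that is laid down in the germ line of 1 parent, at control regions which often serve a cluster of neighbouring genes. After fertilization these marks are kept through the genome-wide loss of methylation by DNA-binding proteins such as ZFP57 and by the maintenance methyltransferase DNMT1. In primordial germ cells, the precursors of sperm and eggs, the inherited marks are erased before new ones are set according to the sex of the embryo. Imprinted genes are known for roles in fetal growth, the placenta and the brain.

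RNA was sequenced in 8 libraries, 2 for each of 4 groups, all of the rat strain Crlj:WI with the genotype listed as wild type. Embryonic stem cells (ESC) were grown on mouse embryonic fibroblast feeders in N2B27 medium with the MEK inhibitor PD0325901 (1 µM), the GSK3 inhibitor CHIR99021 (3 µM) and rat LIF (1000 U/ml). Epiblast-like cells (EpiLC) were taken after 60 h as aggregates with activin A (20 ng/ml), bFGF (12 ng/ml) and 1% KSR, a serum replacement. Primordial germ cell-like cells (PGCLC_d3) had a further 3 days with BMP4 (500 ng/ml), LIF (1000 U/ml), SCF (100 ng/ml) and EGF (50 ng/ml), and were sorted for the fluorescent reporter Nanos3-T2A-tdTomato. For the group PGCLC_d3ag3, 5000 such sorted cells were combined with 50000 gonadal somatic cells of E15.5 female embryos, depleted of c-KIT+ germ cells, kept for 3 days in 5% KSR medium and sorted again for the reporter. Whether the replicates are separate cultures is not stated, and p-values therefore reflect only how far these libraries differ, which may be technical.

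Values are given in TPM, transcript counts scaled by gene length and by the total of the library, which can be compared between genes. Differences are between group means of log2(TPM+1), with their standard error (SE), and understate the change of genes with low TPM. A gene was called at an adjusted p under 0.05 from limma, over the 13571 genes with at least 1 TPM in at least 2 of the 8 libraries. TPM keep no read totals. Between 15904 and 17284 named genes were above 0 per library. Each group had its own list of markers at the highest sum. The 6 ESC markers summed to 2064 and 2049 TPM in ESC, and 5 EpiLC markers to 3147 and 3384 in EpiLC. Of the latter, 2666 and 2887 came from Dnmt3b, and Fgf5 was at or near 0. The 6 PGCLC markers summed to 1424 and 1431 in PGCLC_d3, and 3 markers of gonadal germ cells to 1026 and 1059 in PGCLC_d3ag3. These 3 also summed to 180 and 150 in EpiLC, 162 and 134 of it from Ddx4, and to 55.3 and 61.6 in ESC. Dnmt3a and Dnmt3b are also among the genes of imprint control below.

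Of the 39 imprinted genes, 34 passed the filter on low values, 18 paternally and 16 maternally expressed. The other 5 stayed under 1 TPM in every library: Asb4 (highest value 0.583), Zim1 (0.785), Rtl1 (0.809), Kcnq1 (0.617) and Rasgrf1 (0.263). The most abundant was Mest, at 2066 and 2015 TPM in EpiLC, followed by Peg3, Gnas, Copg2 and Impact, each above 100 TPM in at least 1 group. Of the 34, 13 had their highest group mean in EpiLC, 12 in PGCLC_d3, 5 in PGCLC_d3ag3 and 4 in ESC. Among all tested genes these shares were 20.9% for EpiLC, 32.9% for PGCLC_d3, 24.4% for PGCLC_d3ag3 and 21.7% for ESC. The lowest group mean fell in ESC for 16 of the 34 and in PGCLC_d3ag3 for 13, against 32.4% and 27.4% of all tested genes. These are ranks of group means without a test, and some are near ties. Mkrn3 is counted as highest in ESC though its groups did not differ. Trappc9 is counted in PGCLC_d3ag3 at a mean of 20.72 TPM, against 20.63 in PGCLC_d3. Of the paternally expressed genes 8 of 18 were highest in EpiLC, 5 in PGCLC_d3, 4 in ESC and 1 in PGCLC_d3ag3. Of the maternally expressed genes 7 of 16 were highest in PGCLC_d3, 5 in EpiLC, 4 in PGCLC_d3ag3 and none in ESC. Phlda2, Slc22a18 and Dlk1 reached 1 TPM in 2 libraries, both of PGCLC_d3, and Magel2 and Igf2 in 2, both of EpiLC. Usp29 reached it in 3 libraries, those of PGCLC_d3 and replicate 1 of PGCLC_d3ag3. These genes passed the filter only through the group where they were highest. Their differences to and from that group, and their part in the counts, were thus partly set by the filter.

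**Figure D1:**
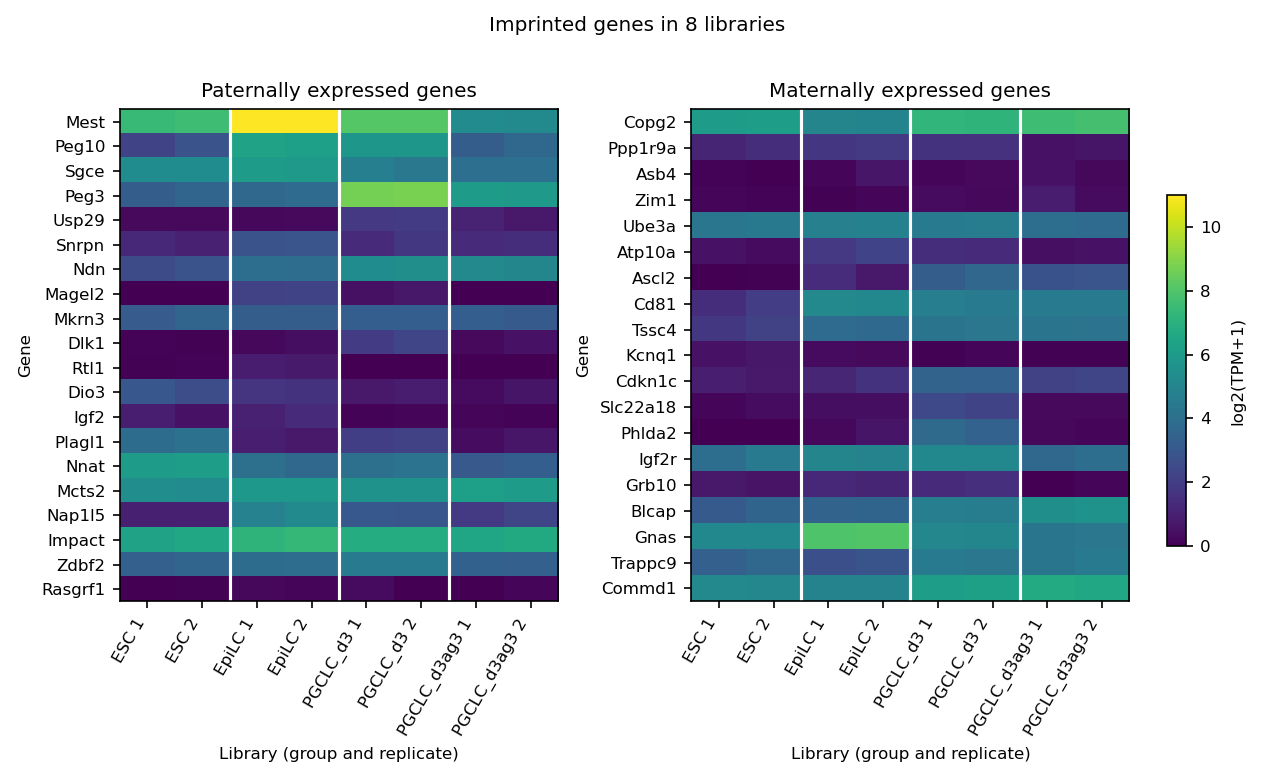
Level of each of the 39 imprinted genes (rows) in each of the 8 libraries (columns, 2 per group), as log2(TPM+1) by colour, for 20 paternally and 19 maternally expressed genes. Mest and Gnas are brightest in EpiLC and Peg3 in PGCLC_d3, and the 5 untested genes stay dark throughout.

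The promoters of 5 members are shown because the results that follow turn on these genes: Mest, Peg10 and Nap1l5 were highest in EpiLC, and Peg3 and Phlda2 in PGCLC_d3. The windows are the 250 bases before the gene's start on the gene's own strand, from RefSeq on the build GRCr8. The expression values were made on rn7, so these coordinates do not apply to that build. Capitals mark CpG dinucleotides, the sites at which DNA can be methylated. Whether these windows lie within imprint control regions was not tested. Methylation was not analysed here.
Mest (chr4:60321564-60321813, plus strand, 15 CpG): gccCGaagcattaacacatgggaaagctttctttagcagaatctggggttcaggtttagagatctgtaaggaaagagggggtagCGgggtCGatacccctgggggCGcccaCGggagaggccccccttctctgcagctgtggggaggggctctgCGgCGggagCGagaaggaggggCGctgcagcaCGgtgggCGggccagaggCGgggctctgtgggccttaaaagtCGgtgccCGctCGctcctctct
Peg10 (chr4:33808776-33809025, plus strand, 18 CpG): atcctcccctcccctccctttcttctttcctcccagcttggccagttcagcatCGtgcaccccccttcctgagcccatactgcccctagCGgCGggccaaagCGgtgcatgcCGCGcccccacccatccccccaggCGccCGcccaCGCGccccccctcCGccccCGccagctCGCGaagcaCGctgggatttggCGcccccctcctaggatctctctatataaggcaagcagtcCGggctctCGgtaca
Nap1l5 (chr4:89354705-89354954, minus strand, 16 CpG): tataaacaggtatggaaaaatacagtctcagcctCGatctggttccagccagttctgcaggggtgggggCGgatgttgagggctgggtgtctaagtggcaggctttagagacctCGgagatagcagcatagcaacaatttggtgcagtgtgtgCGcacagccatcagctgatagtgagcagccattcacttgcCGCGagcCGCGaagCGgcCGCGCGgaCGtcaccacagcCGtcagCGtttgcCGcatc
Peg3 (chr1:76130744-76130993, plus strand, 11 CpG): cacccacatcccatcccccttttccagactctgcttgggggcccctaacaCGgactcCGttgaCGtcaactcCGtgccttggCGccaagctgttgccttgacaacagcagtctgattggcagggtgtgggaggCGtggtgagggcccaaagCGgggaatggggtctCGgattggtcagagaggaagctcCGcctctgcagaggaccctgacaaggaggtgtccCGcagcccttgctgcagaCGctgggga
Phlda2 (chr1:208127242-208127491, minus strand, 19 CpG): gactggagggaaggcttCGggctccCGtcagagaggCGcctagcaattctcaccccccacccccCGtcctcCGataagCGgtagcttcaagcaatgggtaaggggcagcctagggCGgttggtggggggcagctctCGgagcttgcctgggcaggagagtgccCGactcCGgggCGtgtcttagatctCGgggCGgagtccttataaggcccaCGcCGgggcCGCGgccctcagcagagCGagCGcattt

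Promoter windows were at hand for 33 of the 39 members (36 windows, since some genes have more than 1 start). They held a median of 15 CpG, against 16 in the 11459 windows of tested genes and 5 in all 33469 windows. The letters TGCCGC, the short sequence that ZFP57 binds when it is methylated, were searched on both strands as the only motif. They occurred in 9 of the 36 windows (25%), against 15.1% of the windows of tested genes and 8.91% of all windows. Paternally expressed genes held them in 7 of 18 windows and maternally expressed genes in 2 of 18. The windows of Peg10 and Sgce share 237 bases on opposite strands, so their match is the same site and is counted in both windows. Of the printed windows, that of Nap1l5 held 2 matches and that of Peg10 held 1. A match is only a description of the letters, and no binding was measured.

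Mest, a paternally expressed gene for an enzyme of the alpha/beta-hydrolase fold, stood at 172 and 193 in ESC, 2066 and 2015 in EpiLC, 273 and 269.6 in PGCLC_d3, and 38.9 and 37.9 in PGCLC_d3ag3. It was highest in both EpiLC libraries and lowest in both PGCLC_d3ag3 libraries, with no overlap between any of the groups. The difference was 3.48 (SE 0.06, adjusted p = 1.13e-10) from ESC to EpiLC, -2.91 (SE 0.06, adjusted p = 3.52e-10) from EpiLC to PGCLC_d3 and -2.79 (SE 0.06, adjusted p = 2.11e-09) from there to PGCLC_d3ag3. In bulk libraries, fewer cells with a transcript and less of it per cell cannot be told apart, here and in all results below. Its neighbour Copg2, which encodes a subunit of the COPI vesicle coat and is expressed mainly from the maternal copy, read 66.6 and 69.8 in ESC, 31.1 and 29.8 in EpiLC, 152 and 141 in PGCLC_d3, and 193 and 212 in PGCLC_d3ag3. Copg2 was lowest in EpiLC, where Mest was highest, and highest in PGCLC_d3ag3, where Mest was lowest. It fell by 1.14 into EpiLC (SE 0.07, adjusted p = 3.33e-07), and rose by 2.23 (SE 0.07, adjusted p = 3.17e-09) into PGCLC_d3 and by 0.47 (SE 0.07, adjusted p = 1.94e-04) into PGCLC_d3ag3.

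Peg10, a paternally expressed gene derived from a retrotransposon and needed for the placenta, had 3.78 and 6.09 in ESC, 79.2 and 72.6 in EpiLC, 55.2 and 56.2 in PGCLC_d3, and 8.53 and 12.04 in PGCLC_d3ag3. Both EpiLC and both PGCLC_d3 libraries were above 50 TPM, and all ESC and PGCLC_d3ag3 libraries were at 12.04 or below. Peg10 rose into EpiLC by 3.72 (SE 0.19, adjusted p = 8.69e-08) and fell into PGCLC_d3ag3 by 2.35 (SE 0.19, adjusted p = 3.22e-06). The step from EpiLC to PGCLC_d3, -0.44 (SE 0.19, adjusted p = 0.0555), did not pass, and passed under 10 of the alternatives, at adjusted p from 6.27e-04 to 0.0478. Sgce, the paternally expressed gene for epsilon-sarcoglycan, lies head to head with Peg10. Their starts are 238 bases apart on opposite strands, and their promoter windows share 237 bases, so the sequence printed for Peg10 read on the other strand is nearly all of the Sgce window. The Sgce values were 39.3 and 39.5 in ESC, 65.3 and 61.7 in EpiLC, 25.9 and 19.95 in PGCLC_d3, and 15.4 and 15.1 in PGCLC_d3ag3. Like Peg10 it was highest in EpiLC, but it was lowest in PGCLC_d3ag3 and not in ESC, where both of its libraries were above 39 TPM and Peg10 was at 6.09 or below. The differences of Sgce were 0.67 (SE 0.11, adjusted p = 3.61e-04) into EpiLC, -1.44 (SE 0.11, adjusted p = 1.28e-06) into PGCLC_d3 and -0.55 (SE 0.11, adjusted p = 0.00137) into PGCLC_d3ag3. The last of these did not pass under quantile normalization (adjusted p = 0.0864). Ppp1r9a, the maternally expressed neurabin gene of the same cluster, stayed between 0.459 and 2.69 TPM. It fell into PGCLC_d3ag3 by 0.99 (SE 0.14, adjusted p = 1.15e-04), and its rise into EpiLC, 0.52 (SE 0.14, adjusted p = 0.00652), did not pass without ESC replicate 1 (adjusted p = 0.0547). Its difference between EpiLC and PGCLC_d3, -0.23 (SE 0.14, adjusted p = 0.15), passed after rescaling by the median of ratios (-0.41, adjusted p = 0.0168) and with quantile normalization (-0.52, adjusted p = 0.00387).

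Peg3, a paternally expressed gene for a large zinc finger protein, was at 8.55 and 10.9 in ESC, 11.99 and 13.2 in EpiLC, 412 and 443 in PGCLC_d3, and 64.8 and 59.5 in PGCLC_d3ag3. Both PGCLC_d3 libraries were above 400 TPM, both PGCLC_d3ag3 libraries near 60, and the ESC and EpiLC libraries between 8.55 and 13.2. The rise into PGCLC_d3, 4.98 (SE 0.11, adjusted p = 4.17e-10), was the largest difference of any tested member at any step. Peg3 then fell by 2.76 (SE 0.11, adjusted p = 4.37e-08) and was still above ESC by 2.57 (SE 0.11, adjusted p = 1.50e-08). A small rise into EpiLC, 0.35 (SE 0.11, adjusted p = 0.0148), did not pass without ESC replicate 1 (adjusted p = 0.113), without EpiLC replicate 2 (0.1003) or with only these groups in the fit (0.0732). Usp29, a paternally expressed gene for a ubiquitin protease that neighbours Peg3, was low, with 0.215 and 0.224 in ESC, 0.185 and 0.215 in EpiLC, 2.54 and 2.82 in PGCLC_d3, and 1.05 and 0.698 in PGCLC_d3ag3. It had the same order of groups as Peg3 in PGCLC_d3 and PGCLC_d3ag3, and its ESC and EpiLC libraries overlapped. Usp29 rose by 1.61 (SE 0.13, adjusted p = 1.84e-06) into PGCLC_d3 and fell by 0.98 (SE 0.13, adjusted p = 8.96e-05) into PGCLC_d3ag3. Without PGCLC_d3 it would not have passed the filter, so both differences were partly set by it.

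**Figure D2:**
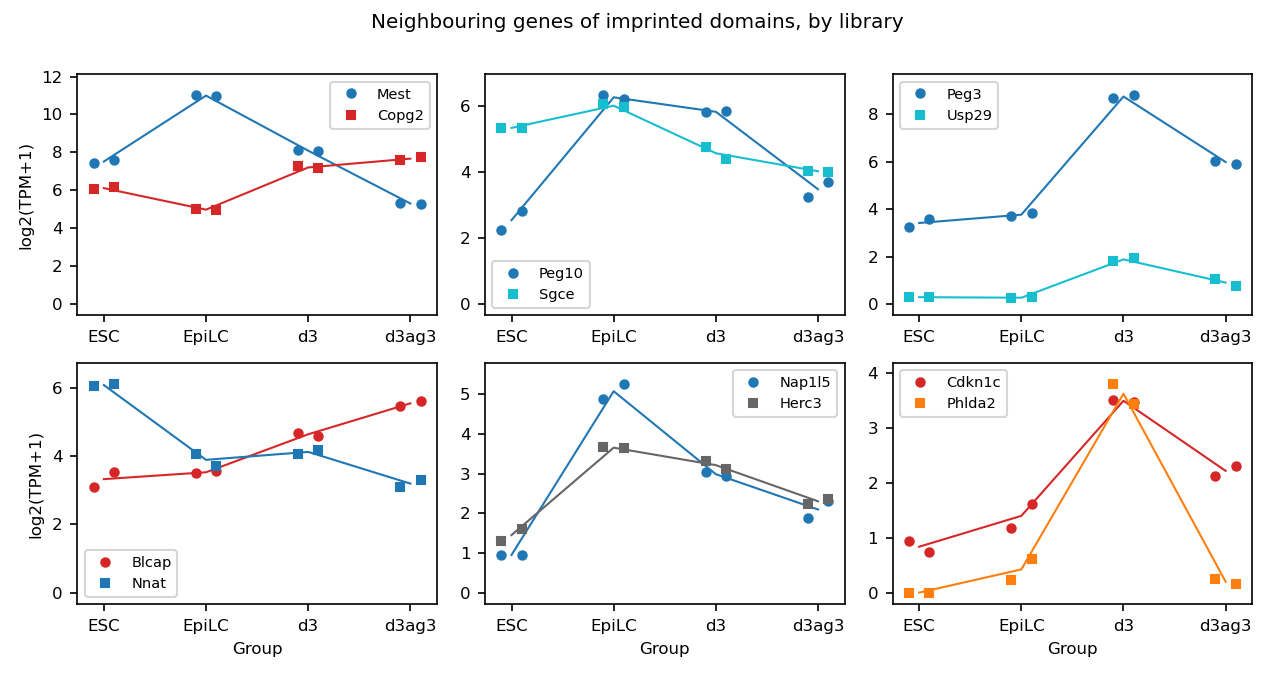
Level of neighbouring genes in each library, as log2(TPM+1) from 0, against the group (d3, PGCLC_d3; d3ag3, PGCLC_d3ag3). Points are libraries, lines join group means, blue and cyan genes are paternally and red and orange genes maternally expressed, and Herc3 (grey) is the host of Nap1l5. Mest and Copg2 run opposite ways, and so do Nnat and Blcap between ESC and PGCLC_d3ag3, while Peg3 with Usp29 and Cdkn1c with Phlda2 peak in PGCLC_d3.

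The cluster around Snrpn and Ndn, whose loss on the paternal side underlies Prader-Willi syndrome in humans, did not move as a unit. Snrpn, which encodes a spliceosomal core protein, read 1.33 and 1.03 in ESC, 6.13 and 6.36 in EpiLC, 1.45 and 2.40 in PGCLC_d3, and 1.45 and 1.71 in PGCLC_d3ag3. The EpiLC libraries were highest and the libraries of the other groups lay between 1.03 and 2.40. Snrpn rose into EpiLC by 1.74 (SE 0.17, adjusted p = 9.54e-06) and fell into PGCLC_d3 by 1.33 (SE 0.17, adjusted p = 5.20e-05). Its transcription unit overlaps that of Snurf on the reference, so reads of the pair may have been divided between them. Snurf, added after its values were seen, read 0.489 and 0.477 in ESC, 3.37 and 3.43 in EpiLC, 1.18 and 1.502 in PGCLC_d3, and 3.16 and 2.68 in PGCLC_d3ag3. From PGCLC_d3 to PGCLC_d3ag3 Snurf rose by 0.74 (adjusted p = 5.76e-04), while the difference of Snrpn was -0.16 (SE 0.17, adjusted p = 0.409). Ndn, the gene for the growth-restraining protein necdin, was at 4.64 and 6.13 in ESC, 14.7 and 14.3 in EpiLC, 39.5 and 42.8 in PGCLC_d3, and 35.6 and 31.9 in PGCLC_d3ag3. It stepped up from ESC to EpiLC and again to PGCLC_d3, and both PGCLC groups were above all ESC and EpiLC libraries. The rises were 1.29 (SE 0.12, adjusted p = 7.65e-06) and 1.44 (SE 0.12, adjusted p = 2.76e-06), and the difference of PGCLC_d3ag3 from PGCLC_d3, -0.28 (SE 0.12, adjusted p = 0.064), did not pass. That last difference passed under 4 alternatives, without ESC replicate 1 (adjusted p = 0.0237), without ESC replicate 2 (0.0242), with only these groups in the fit (0.0324) and with a pseudocount of 5 (0.0335).

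Magel2, a member of the same MAGE family as Ndn, had 0.027 and 0.02 in ESC, 3.33 and 3.73 in EpiLC, 0.420 and 0.625 in PGCLC_d3, and 0.012 and 0 in PGCLC_d3ag3. It was above 1 TPM only in the EpiLC libraries and was close to 0 in ESC and PGCLC_d3ag3. Magel2 rose by 2.15 (SE 0.12, adjusted p = 1.92e-07) and then fell by 1.58 (SE 0.12, adjusted p = 1.35e-06) and by 0.59 (SE 0.12, adjusted p = 0.00146). As it passed the filter only through EpiLC, its differences to and from EpiLC were partly set by the filter. Mkrn3, a makorin ubiquitin ligase gene known as a brake on puberty, lay between 7.70 and 11.1 TPM in all libraries. It was the 1 tested member that did not pass the test of any difference between the groups. With quantile normalization it was lower in PGCLC_d3 than in EpiLC by -0.35 (adjusted p = 0.0366), against 0.02 (SE 0.15, adjusted p = 0.901) as deposited, and without ESC replicate 1 it was lower in PGCLC_d3ag3 than in ESC by -0.40 (adjusted p = 0.0245).

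Maternal expression in this cluster is known for Ube3a, a ubiquitin ligase gene imprinted in neurons, and Atp10a, a phospholipid transporter gene. Ube3a read 18.9 and 20.6 in ESC, 26.8 and 27.5 in EpiLC, 22.2 and 23.6 in PGCLC_d3, and 14.6 and 13.3 in PGCLC_d3ag3. Its groups did not overlap and spanned a narrow range, highest in EpiLC and lowest in PGCLC_d3ag3. It rose into EpiLC by 0.44 (SE 0.09, adjusted p = 0.00173) and fell into PGCLC_d3ag3 by 0.68 (SE 0.09, adjusted p = 1.06e-04). The fall between EpiLC and PGCLC_d3, -0.24 (SE 0.09, adjusted p = 0.0382), did not pass without any 1 of the 4 libraries of these groups (adjusted p from 0.0782 to 0.203). Atp10a stood at 0.464 and 0.236 in ESC, 2.59 and 3.69 in EpiLC, 1.70 and 1.49 in PGCLC_d3, and 0.353 and 0.441 in PGCLC_d3ag3. EpiLC was highest, PGCLC_d3 intermediate, and the ESC and PGCLC_d3ag3 libraries overlapped near 0.4 TPM. The differences were 1.61 (SE 0.16, adjusted p = 1.00e-05) into EpiLC, -0.66 (SE 0.16, adjusted p = 0.00336) into PGCLC_d3 and -0.89 (SE 0.16, adjusted p = 6.11e-04) into PGCLC_d3ag3.

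Members that govern the insulin-like growth factor signal are described next. Igf2, the paternally expressed fetal growth factor, was low throughout, at 0.875 and 0.455 in ESC, 1.01 and 1.51 in EpiLC, 0.077 and 0.118 in PGCLC_d3, and 0.124 and 0.092 in PGCLC_d3ag3. EpiLC was highest and both PGCLC groups were near 0.1 TPM. Igf2 fell into PGCLC_d3 by 1.03 (SE 0.15, adjusted p = 1.63e-04), and passed the filter only through EpiLC. Its rise into EpiLC, 0.44 (SE 0.15, adjusted p = 0.0276), did not pass without ESC replicate 2 (adjusted p = 0.216), without EpiLC replicate 2 (0.181), with only these groups in the fit (0.0588), with a pseudocount of 0.1 (0.0733) or with quantile normalization (0.372). Igf2r, the maternally expressed receptor that takes IGF2 to the lysosome, was at 14.8 and 21.6 in ESC, 31.4 and 29.1 in EpiLC, 33.7 and 34.04 in PGCLC_d3, and 11.7 and 14.8 in PGCLC_d3ag3. The EpiLC and PGCLC_d3 libraries were all near 30 TPM, and those of ESC and PGCLC_d3ag3 were lower and met at 14.8 without overlap. Igf2r rose into EpiLC by 0.73 (SE 0.16, adjusted p = 0.0026), or by 0.47 without ESC replicate 1, and fell into PGCLC_d3ag3 by 1.30 (SE 0.16, adjusted p = 5.71e-05). Its difference between PGCLC_d3ag3 and ESC, -0.42 (SE 0.16, adjusted p = 0.0363), did not pass under 8 alternatives (adjusted p from 0.0510 to 0.325), among them leaving out ESC replicate 2, PGCLC_d3ag3 replicate 1 or any single library of EpiLC and PGCLC_d3, and was -0.67 without ESC replicate 1. Grb10, an adaptor gene that dampens insulin and IGF receptor signals, had 0.699 and 0.473 in ESC, 1.40 and 1.19 in EpiLC, 1.47 and 1.80 in PGCLC_d3, and 0 and 0.117 in PGCLC_d3ag3. It was near 0 in PGCLC_d3ag3 and between 0.473 and 1.80 TPM elsewhere. Grb10 fell into PGCLC_d3ag3 by 1.31 (SE 0.13, adjusted p = 1.67e-05), and its rise into EpiLC, 0.53 (SE 0.13, adjusted p = 0.00552), did not pass under quantile normalization (adjusted p = 0.102).

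The cluster that holds Cdkn1c, Phlda2, Slc22a18, Ascl2, Cd81 and Tssc4 is maternally expressed and is known for restraint of growth and for the placenta. Phlda2, which limits placental growth, was at 0 in both ESC libraries, 0.171 and 0.533 in EpiLC, 12.9 and 9.86 in PGCLC_d3, and 0.183 and 0.112 in PGCLC_d3ag3. It was above 1 TPM only in PGCLC_d3. Phlda2 rose by 3.20 (SE 0.17, adjusted p = 9.03e-08) into PGCLC_d3 and fell by 3.42 (SE 0.17, adjusted p = 1.64e-07) into PGCLC_d3ag3. It passed the filter only through PGCLC_d3, so both differences were partly set by the filter. The difference of EpiLC from ESC, 0.42 (SE 0.17, adjusted p = 0.0455), did not pass under 9 alternatives (adjusted p from 0.0520 to 0.315), among them leaving out either ESC replicate, EpiLC replicate 2 or either PGCLC_d3ag3 replicate. Slc22a18, a transporter gene next to Phlda2, read 0.147 and 0.269 in ESC, 0.317 and 0.344 in EpiLC, 4.36 and 3.75 in PGCLC_d3, and 0.203 and 0.217 in PGCLC_d3ag3. It had the same shape, with PGCLC_d3 at about 4 TPM and every other library under 0.4. Slc22a18 rose by 1.92 (SE 0.12, adjusted p = 3.41e-07) and fell by 2.06 (SE 0.12, adjusted p = 4.79e-07), and it too passed the filter only through PGCLC_d3. Cdkn1c encodes the cyclin-dependent kinase inhibitor p57 and was at 0.911 and 0.666 in ESC, 1.27 and 2.05 in EpiLC, 10.4 and 10.1 in PGCLC_d3, and 3.36 and 3.95 in PGCLC_d3ag3. PGCLC_d3 was again highest, but PGCLC_d3ag3 stayed above every ESC and EpiLC library. Cdkn1c rose by 2.095 (SE 0.16, adjusted p = 1.64e-06) into PGCLC_d3, fell by 1.28 (SE 0.16, adjusted p = 7.68e-05) into PGCLC_d3ag3, and ended above ESC by 1.38 (SE 0.16, adjusted p = 2.90e-05). Its rise into EpiLC, 0.56 (SE 0.16, adjusted p = 0.0122), did not pass without ESC replicate 2 (adjusted p = 0.0822), without EpiLC replicate 2 (0.110) or with quantile normalization (0.108).

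Ascl2, a transcription factor gene of the trophoblast, had 0 and 0.056 in ESC, 1.64 and 0.661 in EpiLC, 8.61 and 11.3 in PGCLC_d3, and 5.90 and 6.41 in PGCLC_d3ag3. It was near 0 in ESC, low and uneven in EpiLC, and highest in PGCLC_d3. It rose by 1.03 (SE 0.21, adjusted p = 0.00169) into EpiLC and by 2.38 (SE 0.21, adjusted p = 3.92e-06) into PGCLC_d3. The fall into PGCLC_d3ag3, -0.60 (SE 0.21, adjusted p = 0.0267), did not pass under 7 alternatives (adjusted p from 0.0594 to 0.362), among them leaving out PGCLC_d3 replicate 2 or either PGCLC_d3ag3 replicate. Ascl2 overlaps Tspan32 on the reference. Of 5 markers of trophoblast only Hand1 both rose into PGCLC_d3 and fell into PGCLC_d3ag3. Hand1 was at 0 in both ESC libraries, 3.55 and 2.83 in EpiLC, 53.6 and 53.4 in PGCLC_d3, and 0.051 and 0.517 in PGCLC_d3ag3. Plac1 was at 90.5 and 91.3 in PGCLC_d3 and 92.4 and 93.7 in PGCLC_d3ag3, a difference of 0.03 (SE 0.09, adjusted p = 0.745). Over the 5 trophoblast markers the sum was 146 in both PGCLC_d3 libraries, 94.8 and 95.4 in PGCLC_d3ag3, 57.8 and 55.7 in EpiLC and 27.1 in both ESC libraries. Of the defining trophoblast genes Elf5 stayed at or under 0.109 TPM in every library. Gcm1 was at 0.121 and 0.210 in PGCLC_d3 and 2.13 and 0.705 in PGCLC_d3ag3, and at or under 0.0534 in ESC and EpiLC. Eomes was lower in PGCLC_d3 (1.90 and 1.48) than in ESC (27.1 and 27.1). The part of such cells in the values of Phlda2, Slc22a18, Cdkn1c and Ascl2 was not tested.

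The other tested genes of this cluster kept a raised level after EpiLC. Cd81, which encodes a tetraspanin membrane protein, was at 1.70 and 3.02 in ESC, 35.1 and 33.7 in EpiLC, 25.2 and 21.5 in PGCLC_d3, and 22.7 and 22.9 in PGCLC_d3ag3. All libraries after ESC were above 20 TPM and both ESC libraries were near 2 or 3. Cd81 rose into EpiLC by 3.42 (SE 0.17, adjusted p = 6.97e-08), and its difference between the PGCLC groups was -0.03 (SE 0.17, adjusted p = 0.88). The step down into PGCLC_d3, -0.54 (SE 0.17, adjusted p = 0.0138), did not pass without EpiLC replicate 1 (adjusted p = 0.0753), EpiLC replicate 2 (0.0528) or PGCLC_d3 replicate 2 (0.0975). Tssc4, a gene for a splicing factor, read 2.46 and 3.47 in ESC, 13.5 and 12.5 in EpiLC, 17.9 and 19.6 in PGCLC_d3, and 17.9 and 17.2 in PGCLC_d3ag3. It was lowest in ESC and highest in PGCLC_d3 and PGCLC_d3ag3, whose libraries overlapped. Tssc4 rose by 1.83 (SE 0.13, adjusted p = 1.29e-06) into EpiLC. Its further rise, 0.50 (SE 0.13, adjusted p = 0.007), did not pass without EpiLC replicate 2 (adjusted p = 0.0512), without PGCLC_d3 replicate 2 (0.0596), with median-of-ratios rescaling (0.109) or with quantile normalization (0.270).

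**Figure D3:**
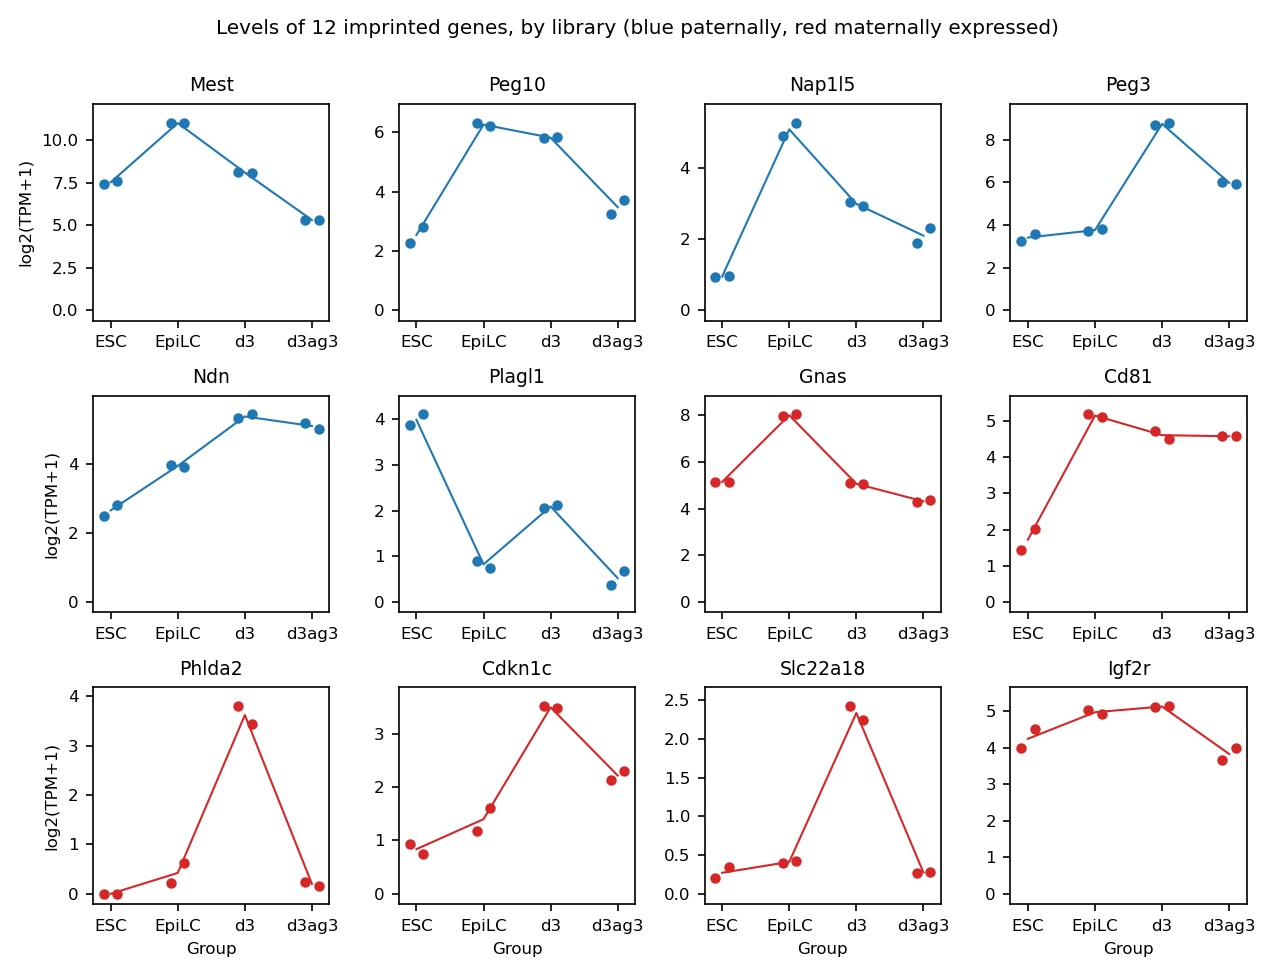
Level of 12 imprinted genes in each library, as log2(TPM+1) from 0, against the group (d3, PGCLC_d3; d3ag3, PGCLC_d3ag3). Points are libraries and lines join group means. Mest, Nap1l5, Gnas and Cd81 are highest in EpiLC, Peg3, Phlda2, Cdkn1c and Slc22a18 in PGCLC_d3, and Plagl1 in ESC.

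A few paternally expressed members were highest in ESC. Plagl1, a zinc finger transcription factor gene, was at 13.6 and 16.2 in ESC, 0.871 and 0.676 in EpiLC, 3.15 and 3.38 in PGCLC_d3, and 0.296 and 0.592 in PGCLC_d3ag3. The ESC libraries were highest, PGCLC_d3 intermediate, and EpiLC and PGCLC_d3ag3 under 1 TPM. Plagl1 fell by 3.16 (SE 0.15, adjusted p = 5.91e-08) into EpiLC, rose by 1.27 (SE 0.15, adjusted p = 3.22e-05) into PGCLC_d3 and fell again by 1.57 (SE 0.15, adjusted p = 1.09e-05). Nnat, which encodes the small membrane protein neuronatin, had 65.4 and 68.6 in ESC, 15.8 and 12.1 in EpiLC, 15.7 and 17.2 in PGCLC_d3, and 7.50 and 8.90 in PGCLC_d3ag3. ESC was highest, EpiLC and PGCLC_d3 overlapped, and PGCLC_d3ag3 was lowest. It fell by 2.19 (SE 0.13, adjusted p = 2.80e-07) into EpiLC and by 0.93 (SE 0.13, adjusted p = 1.31e-04) into PGCLC_d3ag3. The step between these, 0.23 (SE 0.13, adjusted p = 0.128), passed only without EpiLC replicate 1 (0.41, adjusted p = 0.0236). Nnat lies within Blcap, an apoptosis-related gene that favours the maternal copy in brain and read 7.62 and 10.7 in ESC, 10.3 and 10.8 in EpiLC, 24.7 and 23.3 in PGCLC_d3, and 43.4 and 48.5 in PGCLC_d3ag3. Blcap ran the other way, lowest in ESC and highest in PGCLC_d3ag3. It rose by 1.11 (SE 0.14, adjusted p = 4.36e-05) into PGCLC_d3 and by 0.91 (SE 0.14, adjusted p = 2.31e-04) into PGCLC_d3ag3, and its EpiLC difference from ESC, 0.20 (SE 0.14, adjusted p = 0.222), passed only without ESC replicate 2 (0.42, adjusted p = 0.0119).

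Dio3, the gene of an enzyme that inactivates thyroid hormone, was at 6.88 and 5.08 in ESC, 2.102 and 2.02 in EpiLC, 0.683 and 0.847 in PGCLC_d3, and 0.237 and 0.541 in PGCLC_d3ag3. It was highest in ESC and lower in each later group, with no overlap between groups. Dio3 fell by 1.18 (SE 0.16, adjusted p = 1.26e-04) into EpiLC and by 0.80 (SE 0.16, adjusted p = 0.0014) into PGCLC_d3. Its last difference, -0.35 (SE 0.16, adjusted p = 0.0784), passed without PGCLC_d3ag3 replicate 2 (adjusted p = 0.0327) and with a pseudocount of 0.1 (0.0376). Dlk1, a paternally expressed gene for a transmembrane relative of the Notch ligands, shares a cluster with Dio3 and Rtl1 and had 0.09 and 0.033 in ESC, 0.193 and 0.330 in EpiLC, 2.86 and 3.93 in PGCLC_d3, and 0.207 and 0.434 in PGCLC_d3ag3. It was above 1 TPM only in PGCLC_d3. Its EpiLC difference from ESC, 0.25 (SE 0.15, adjusted p = 0.178), passed only with a pseudocount of 0.1 (1.16, adjusted p = 0.0282). Dlk1 rose by 1.79 (SE 0.15, adjusted p = 2.88e-06) and fell by 1.73 (SE 0.15, adjusted p = 6.24e-06). Both differences were partly set by the filter, which Dlk1 passed only through PGCLC_d3. Rtl1, a retrotransposon-derived gene of the same cluster, was at 0.809 and 0.710 in EpiLC and at or under 0.0905 in every other library, and was not tested.

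Nap1l5 and Mcts2 are intronless paternally expressed genes that lie inside host genes. Nap1l5, a nucleosome assembly protein gene within Herc3, read 0.931 and 0.935 in ESC, 28.8 and 37.5 in EpiLC, 7.24 and 6.63 in PGCLC_d3, and 2.71 and 3.94 in PGCLC_d3ag3. EpiLC was highest, followed by PGCLC_d3, then PGCLC_d3ag3, with ESC under 1 TPM. The rise into EpiLC, 4.13 (SE 0.17, adjusted p = 2.27e-08), was the largest of the tested members at that step, and it then fell by 2.09 (SE 0.17, adjusted p = 2.18e-06) and 0.89 (SE 0.17, adjusted p = 0.00106). The host Herc3 was at 1.47 and 2.02 in ESC, 11.7 and 11.6 in EpiLC, 8.94 and 7.68 in PGCLC_d3, and 3.71 and 4.17 in PGCLC_d3ag3, and differed by 2.21 (SE 0.14, adjusted p = 4.99e-07) from ESC to EpiLC. The overlap is one of whole gene spans. Reads of a gene within another may be shared with its host, and how far was not tested. Mcts2, a retrogene copy of Mcts1 that lies in Hm13, had 41.5 and 38.1 in ESC, 56.9 and 57.04 in EpiLC, 47.1 and 47.5 in PGCLC_d3, and 73.3 and 67.4 in PGCLC_d3ag3. It was lowest in ESC and highest in PGCLC_d3ag3, with no overlap between groups. Its differences were 0.51 (SE 0.07, adjusted p = 1.30e-04), -0.26 (SE 0.07, adjusted p = 0.0069) and 0.56 (SE 0.07, adjusted p = 6.69e-05) at the successive steps. Reads of Mcts2 and Mcts1, which was at 69.9 and 62.5 in ESC, 109.5 and 111 in EpiLC, 55.5 and 63.1 in PGCLC_d3, and 60.6 and 53.7 in PGCLC_d3ag3, may have been divided by the counting because the copies are near identical. Hm13, the rat symbol of the listed H13, was added after its values were seen and read 8.54 and 9.79 in ESC, 7.26 and 7.69 in EpiLC, 10.03 and 10.7 in PGCLC_d3, and 5.33 and 3.53 in PGCLC_d3ag3.

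Gnas, which encodes the stimulatory G protein alpha subunit and has several imprinted transcripts, was at 34.1 and 34.6 in ESC, 249.9 and 261 in EpiLC, 32.9 and 32.1 in PGCLC_d3, and 18.2 and 19.6 in PGCLC_d3ag3. The EpiLC libraries stood far above all others, ESC and PGCLC_d3 lay within 3 TPM of each other, and PGCLC_d3ag3 was lowest. Gnas rose by 2.86 (SE 0.07, adjusted p = 5.79e-10) and fell by 2.94 (SE 0.07, adjusted p = 5.71e-10) and by 0.75 (SE 0.07, adjusted p = 6.61e-06). A single row holds the locus, so its transcripts of different parental origin are not separated.

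Smaller differences were found for 4 further members. Impact, a paternally expressed gene whose protein limits activation of the stress kinase GCN2, was at 80.2 and 95.002 in ESC, 142 and 161 in EpiLC, 111 and 113 in PGCLC_d3, and 86.5 and 101 in PGCLC_d3ag3. EpiLC was highest, and the other groups lay between 80.2 and 113 TPM. It rose by 0.78 (SE 0.10, adjusted p = 7.36e-05) into EpiLC and fell by 0.43 (SE 0.10, adjusted p = 0.00314) into PGCLC_d3. The last step, -0.25 (SE 0.10, adjusted p = 0.0468), did not pass under 9 alternatives (adjusted p from 0.0531 to 0.669), among them leaving out either replicate of EpiLC or PGCLC_d3 or PGCLC_d3ag3 replicate 1. Zdbf2, a paternally expressed zinc finger gene, read 9.43 and 11.0003 in ESC, 13.9 and 14.3 in EpiLC, 22.9 and 23.2 in PGCLC_d3, and 9.75 and 9.43 in PGCLC_d3ag3. PGCLC_d3 was highest and ESC and PGCLC_d3ag3 overlapped. Zdbf2 rose by 0.43 (SE 0.10, adjusted p = 0.00416) and 0.67 (SE 0.10, adjusted p = 2.03e-04) and then fell by 1.18 (SE 0.10, adjusted p = 5.94e-06). Trappc9, a gene for a subunit of a vesicle tethering complex, had 9.39 and 11.9 in ESC, 5.36 and 6.26 in EpiLC, 21.5 and 19.7 in PGCLC_d3, and 18.6 and 22.8 in PGCLC_d3ag3. EpiLC was lowest and both PGCLC groups were at about 20 TPM. It fell by 0.77 (SE 0.14, adjusted p = 9.04e-04) into EpiLC and rose by 1.67 (SE 0.14, adjusted p = 3.09e-06) into PGCLC_d3. Commd1, a copper homeostasis gene, was at 35.5 and 32.9 in ESC, 29.1 and 28.96 in EpiLC, 70.9 and 75.6 in PGCLC_d3, and 106 and 96.7 in PGCLC_d3ag3. Like Copg2 and Blcap it was highest in PGCLC_d3ag3. Commd1 rose by 1.31 (SE 0.07, adjusted p = 1.61e-07) and 0.46 (SE 0.07, adjusted p = 3.30e-04), while its small fall into EpiLC, -0.23 (SE 0.07, adjusted p = 0.0196), did not pass without ESC replicate 1 (adjusted p = 0.109), EpiLC replicate 1 (0.0655) or EpiLC replicate 2 (0.0710), or with quantile normalization (0.0758).

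The move from ESC to EpiLC, from a naive pluripotent culture to one modelled on the epiblast, brought most tested imprinted genes up. Nap1l5, Peg10, Mest, Cd81 and Gnas had the largest rises, from mean TPM of 0.933, 4.93, 182, 2.36 and 34.4 in ESC to 33.1, 75.9, 2040.1, 34.4 and 256 in EpiLC. Plagl1, Nnat, Dio3, Copg2, Trappc9 and Commd1 fell. Of the 34 tested members 23 rose, 6 fell and 5 did not pass, while 67.3% of all tested genes were called, 35.4% higher and 31.8% lower. With a difference of at least 1 added to the rule, 11 rose and 4 fell, against 23.3% of all tested genes, 12.5% higher and 10.8% lower. The paternally expressed genes had 12 higher, 3 lower and 3 not called of 18, and the maternally expressed 11 higher, 3 lower and 2 not called of 16. The median difference of the 34 was 0.52, and that of all tested genes 0.04. Of 10 fibroblast markers 8 were tested, of which 4 rose into EpiLC, 3 fell and 1, Col1a1, did not pass. Those that rose were Dcn, Col1a2, Lum and Col3a1. Dcn was at 0.261 and 0.287 in ESC and at 9.61 and 15.7 in EpiLC. Col3a1 was at 10.4 and 8.92 in ESC and at 12.5 and 31.6 in EpiLC. Those that fell were Fbln1 (-2.36), Pdgfrb (-1.36) and Postn (-0.46). The list summed to 111 and 113 in ESC, 81.4 and 89.1 of it from Fbln1, and to 59.4 and 100.4 in EpiLC. Only Thy1 was at 0 in both ESC libraries. The part of feeder or fibroblast RNA in the differences of the imprinted genes was not tested.

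At the step from EpiLC to PGCLC_d3 the tested members went both ways. The change of medium and factors, the further 3 days and the sorting for the reporter cannot be told apart here. Peg3, Phlda2, Ascl2, Copg2, Cdkn1c and Slc22a18 had the largest rises, and Gnas, Mest, Nap1l5, Magel2 and Sgce the largest falls. Phlda2 and Slc22a18 passed the filter only through PGCLC_d3, and Magel2 only through EpiLC. Of the 34, 15 rose, 13 fell and 6 did not pass, beside 74.9% called of all tested genes, 47.3% higher and 27.6% lower. By at least 1, 13 rose and 7 fell, beside 29.6% of all tested genes, 18.7% higher and 10.8% lower. The paternally expressed genes had 6 higher and 9 lower of 18, with a median difference of -0.35. The maternally expressed had 9 higher and 4 lower of 16, with a median of 0.81. The falls of maternally expressed genes were those of Gnas, Atp10a, Cd81 and Ube3a. The median of all tested genes was 0.21 at this step and -0.02 after rescaling by the median of ratios, so values should be read relative to that shift. As deposited, 63.2% of the called genes were higher, against 49.0% after rescaling and 50.8% after quantile normalization. The members then had 14 higher and 15 lower after rescaling and 14 higher and 16 lower after quantile normalization, and their median turned from 0.18 to -0.06 and -0.12. In PGCLC_d3 the 10 fibroblast markers summed to 22.3 and 25.4 TPM, with Dcn and Lum at 0 in both libraries. The 5 visceral endoderm markers summed to 58.3 and 46.4 there, 57.5 and 45.05 of it from Sox17, which germ cell precursors also express, with Ttr at 0 in both libraries, and to at most 1.24 in ESC and EpiLC. The part of such cells in these differences was not tested.

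Culture for 3 days with gonadal somatic cells, the step from PGCLC_d3 to PGCLC_d3ag3, was followed by lower levels of most tested members. The somatic cells, the change of medium and the time cannot be told apart. Phlda2, Mest, Peg3, Peg10, Slc22a18 and Dlk1 had the largest falls, from mean TPM of 11.4, 271, 428, 55.7, 4.05 and 3.39 to 0.148, 38.4, 62.2, 10.3, 0.210 and 0.320. The 4 that rose were Blcap, Mcts2, Copg2 and Commd1, by 0.46 to 0.91. Of the 34, 22 fell, 4 rose and 8 did not pass, beside 70.4% called of all tested genes, 44.8% lower and 25.7% higher. Falls of at least 1 were found for 11 and rises of that size for 0. Of all 13571 tested genes, 2099 were called lower by at least 1. Past that size were 22% of all tested genes in either direction and 6.55% higher. By origin, 12 of 18 paternally expressed genes fell and 1 rose, and 10 of 16 maternally expressed genes fell and 3 rose. The median difference was -0.71, and that of all tested genes -0.18. Rescaling moved the latter to -0.01 and the share of higher among called genes from 36.4% to 49.7% (49.9% after quantile normalization), and left 20 members lower and 4 higher (19 and 4). The members' median was then -0.54 after rescaling and -0.44 after quantile normalization. Of 10 markers of gonadal somatic cells the sum was 4.17 and 3.85 in PGCLC_d3 and 11.9 and 13.1 in PGCLC_d3ag3, beside 5.94 and 6.38 in ESC and 17.9 and 17.1 in EpiLC. Gata4 (2.66 and 2.55 to 4.70 and 5.12), Amhr2 (0.430 and 0.398 to 3.74 and 4.26) and Wt1 (0.04 and 0.061 to 1.28 and 1.17) rose at this step, and Amhr2 was at 8.96 and 7.84 in EpiLC. Foxl2 was at 0.289 and 0.461 and Upk3b at 0.106 and 0.041 in PGCLC_d3ag3, and neither was tested. The 10 fibroblast markers summed to 30.1 and 34.4 in PGCLC_d3ag3, with Lum at 0 in both libraries. Of the 8 tested, 3 rose from PGCLC_d3, 2 fell and 3 did not pass. Postn (0.134 and 0.309 to 6.70 and 8.45) and Col3a1 (0.019 and 0.992 to 2.94 and 4.08) were among those that rose. Col1a2 (2.36 and 3.01 to 0.346 and 0.779) and Pdgfrb (0.590 and 0.759 to 0 and 0.206) fell. The 5 endothelial and blood markers summed to 20.2 and 19.3 in PGCLC_d3 and 141 and 149.9 in PGCLC_d3ag3, 135 and 138 of it from Pecam1, which was at 103 and 105 in ESC. The haemoglobin gene Hbb, on that list, was at 4.81 and 11.3 in PGCLC_d3ag3 and at 0 in every other library. Cdh5, on the same list, fell from 1.67 and 1.71 in PGCLC_d3 to 0.364 and 0.213 in PGCLC_d3ag3. The part of such RNA in these differences was not tested.

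Across the whole route, PGCLC_d3ag3 against ESC, the 2 directions were nearly even. Cd81, Ascl2, Peg3, Ndn, Tssc4 and Blcap had the largest rises, and Plagl1, Nnat, Dio3, Mest and Sgce the largest falls. Of the 34, 14 were higher, 11 lower and 9 not called, beside 77.3% called of all tested genes, 42.5% higher and 34.8% lower. By at least 1, 10 were higher and 5 lower, beside 34.3% of all tested genes, 18.4% higher and 15.9% lower. The 5 lower were all paternally expressed, and of the 10 higher 3 were paternally and 7 maternally expressed. For several members the difference from ESC did not pass, and was -0.02 (SE 0.12, adjusted p = 0.861) for Magel2, 0.00 (SE 0.12, adjusted p = 0.979) for Slc22a18 and 0.05 (SE 0.16, adjusted p = 0.767) for Atp10a. Those of Phlda2, 0.20 (SE 0.17, adjusted p = 0.296), and Dlk1, 0.31 (SE 0.15, adjusted p = 0.088), did not pass either, but passed with a pseudocount of 0.1 (adjusted p = 0.0191 and 0.0119), and Dlk1 also without PGCLC_d3ag3 replicate 1 (0.0462). That of Igf2, -0.58 (SE 0.15, adjusted p = 0.00638), did not pass without ESC replicate 1 (adjusted p = 0.0666). These 4 comparisons share groups, so their counts are not independent of each other. Over the 4 groups together, 33 of the 34 differed, beside 96.3% of all tested genes.

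**Figure D4:**
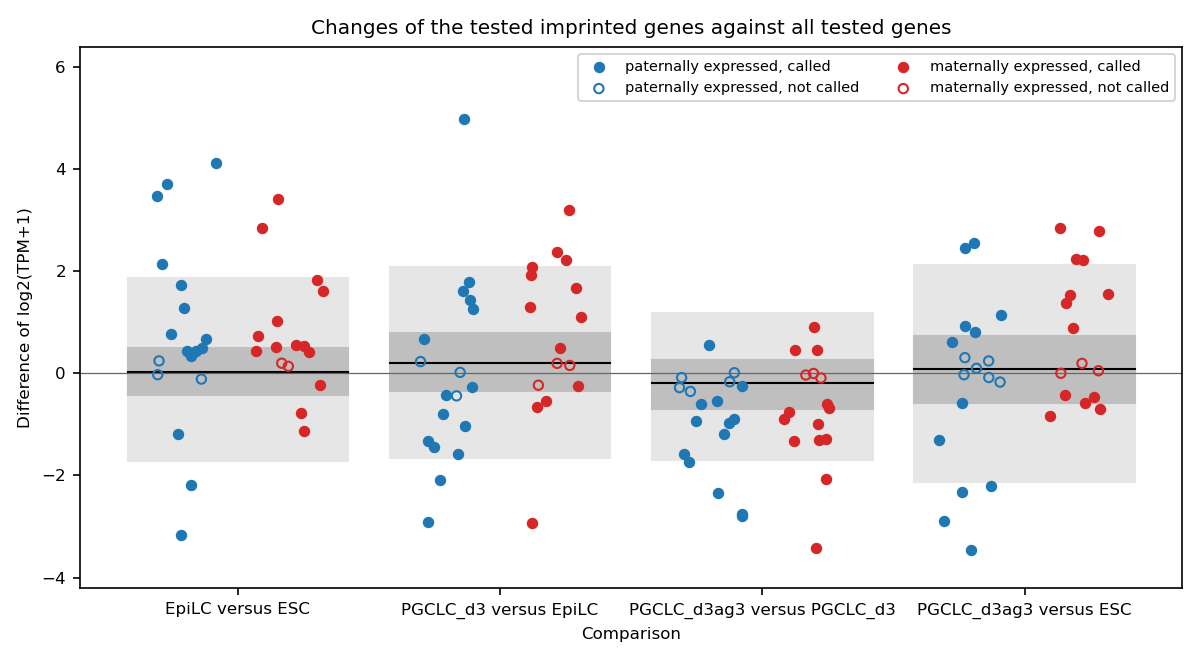
Difference of log2(TPM+1) of the 34 tested imprinted genes in each comparison, paternally (blue) and maternally (red) expressed, filled where called. Grey bands hold the middle 90% (light) and 50% (dark) of all tested genes and the black line is their median. Most points lie above that median for EpiLC versus ESC and below it for PGCLC_d3ag3 versus PGCLC_d3.

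The genes that protect, set or erase imprints were read beside their targets, as a list of 21, of which 20 were tested and Ctcfl was not. Zfp57, whose protein holds methylation at imprinted control regions, was at 79.6 and 77.96 in ESC, 12.3 and 10.98 in EpiLC, 10.9 and 11.4 in PGCLC_d3, and 0.689 and 0.920 in PGCLC_d3ag3. It was lower at each group than in ESC and under 1 TPM in PGCLC_d3ag3. Zfp57 fell by 2.66 (SE 0.11, adjusted p = 2.62e-08) into EpiLC and by 2.75 (SE 0.11, adjusted p = 6.38e-08) into PGCLC_d3ag3. The gene of its partner, Trim28, was at 2093 and 2063 in ESC, 1162 and 1158 in EpiLC, 562 and 560.4 in PGCLC_d3, and 487 and 559 in PGCLC_d3ag3, and fell into EpiLC and into PGCLC_d3. Maintenance of methylation needs Dnmt1 and its recruiter Uhrf1. Dnmt1 read 109 and 123 in ESC, 148 and 142 in EpiLC, 43.1 and 44.5 in PGCLC_d3, and 29.996 and 37.1 in PGCLC_d3ag3, and Uhrf1 34.4 and 36.2 in ESC, 33.5 and 31.97 in EpiLC, 7.83 and 7.26 in PGCLC_d3, and 6.52 and 9.77 in PGCLC_d3ag3. Both were at their lower levels in the PGCLC groups, with differences from EpiLC to PGCLC_d3 of -1.71 (SE 0.10, adjusted p = 1.87e-07) and -1.98 (SE 0.15, adjusted p = 1.27e-06). Dppa3, which guards maternal marks in the zygote and is a germ cell marker, was at 1312 and 1306 in ESC, 38.7 and 26.8 in EpiLC, 375 and 389 in PGCLC_d3, and 467 and 509.9 in PGCLC_d3ag3, low only in EpiLC.

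The de novo methyltransferase genes peaked before PGCLC_d3. Dnmt3b was at 155 and 143 in ESC, 2666 and 2887 in EpiLC, 33.8 and 27.6 in PGCLC_d3, and 25.1 and 30.02 in PGCLC_d3ag3, and Dnmt3a at 13.4 and 16.3 in ESC, 196 and 205 in EpiLC, 2.72 and 2.70 in PGCLC_d3, and 1.43 and 1.88 in PGCLC_d3ag3. Dnmt3l, a cofactor needed to set imprints in germ cells, read 1121 and 1039 in ESC, 331 and 255 in EpiLC, 0.856 and 0.123 in PGCLC_d3, and 0.455 and 0.178 in PGCLC_d3ag3. It was thus high in ESC and EpiLC and under 1 TPM in both PGCLC groups, and fell by 7.66 (SE 0.21, adjusted p = 1.74e-09) between EpiLC and PGCLC_d3. Of the TET dioxygenases, which oxidize methylcytosine, Tet1 was at 25.8 and 29.8 in ESC, 37.1 and 41.3 in EpiLC, 16.7 and 17.9 in PGCLC_d3, and 17.3 and 18.01 in PGCLC_d3ag3 and Tet2 at 69.4 and 78.8 in ESC, 0.753 and 0.974 in EpiLC, 10.3 and 10.95 in PGCLC_d3, and 9.06 and 10.2 in PGCLC_d3ag3. Tet2 was under 1 TPM only in EpiLC, and Tet1 was lower in both PGCLC groups than in ESC and EpiLC. Tet3 fell at each step, by 0.74, 1.74 and 0.76. Kdm1b, a histone demethylase gene needed for maternal imprints in oocytes, rose by 1.31 (SE 0.11, adjusted p = 2.79e-06) and 0.74 (SE 0.11, adjusted p = 2.11e-04) at the last steps. Of the 20 tested genes 10 rose and 7 fell into EpiLC, 4 rose and 11 fell into PGCLC_d3, and 3 rose and 10 fell into PGCLC_d3ag3. Against ESC, 14 were lower and 5 higher in PGCLC_d3ag3. The called shares were thus 85%, 75%, 65% and 95%, beside 67.3%, 74.9%, 70.4% and 77.3% of all tested genes. By direction, 35.4% of all tested genes rose and 31.8% fell into EpiLC, and 47.3% rose and 27.6% fell into PGCLC_d3. Into PGCLC_d3ag3 25.7% rose and 44.8% fell, and against ESC 42.5% were higher and 34.8% lower there.

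**Figure D5:**
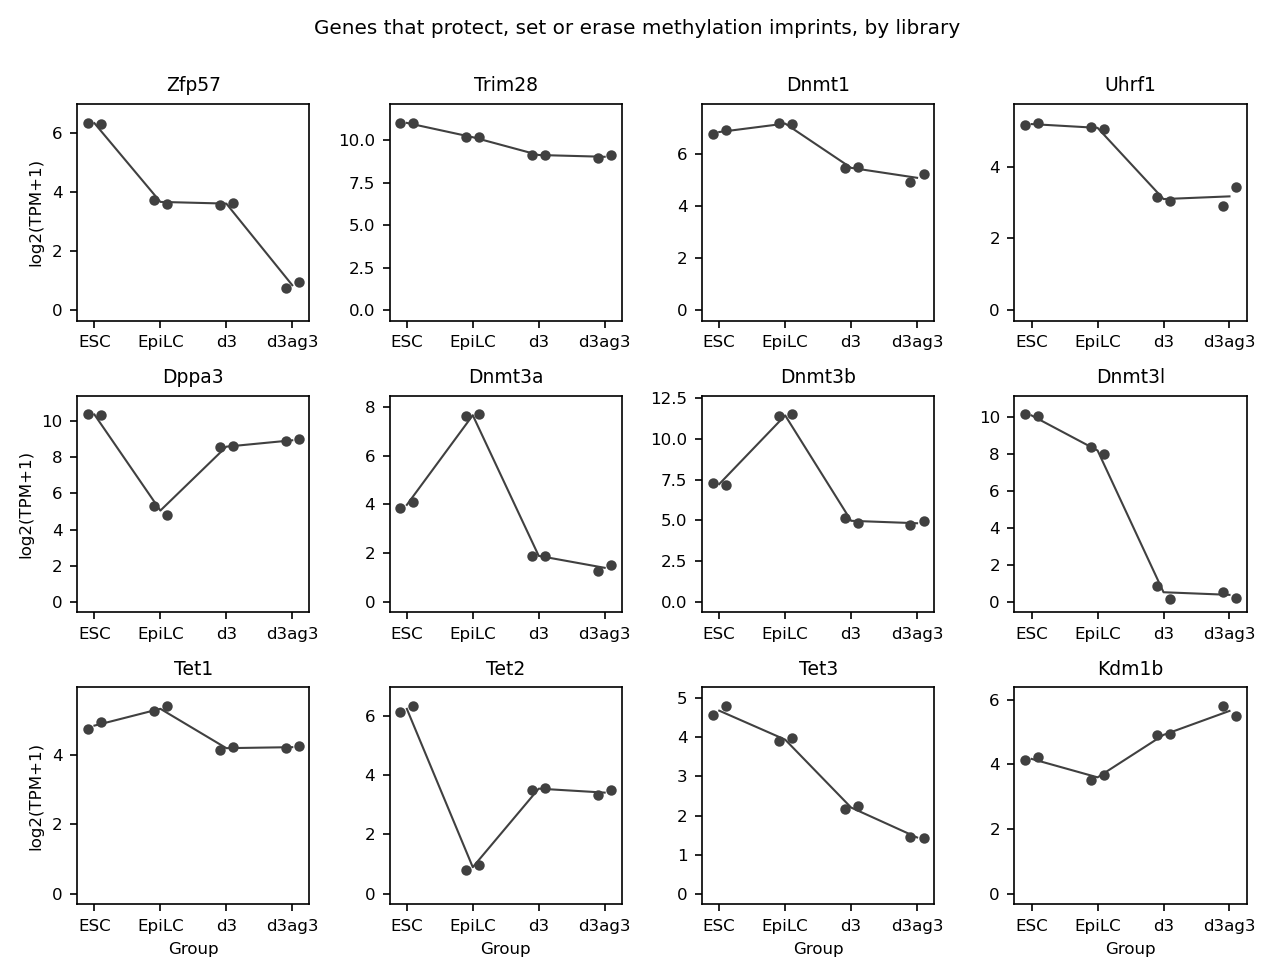
Level of 12 genes that protect, set or erase methylation imprints in each library, as log2(TPM+1) from 0, against the group (d3, PGCLC_d3; d3ag3, PGCLC_d3ag3). Points are libraries and lines join group means. Zfp57 is lowest in PGCLC_d3ag3, Dnmt3a and Dnmt3b are highest in EpiLC, and Dppa3 and Tet2 are lowest in EpiLC.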

How the data were processed

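The submitters' processing notes name bcl2fastq 2.20, cutadapt 1.1.6, HISAT2 2.1.0, featureCounts from Subread 1.6.5 and the rat build rn7. The authors deposited log2 values, log2(TPM+1) per gene and library. The annotation, the TPM step and the strand setting are not given in the sources used here. Blank rows (11066) were left out.

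Groups and replicate numbers come from the sample titles. limma 3.58.1 (R 4.3.3; lmFit, eBayes with trend, 2-sided) was fitted on the deposited log2 values of all 4 groups, with 4 residual degrees of freedom and Benjamini-Hochberg adjustment over 13571 genes, after checking on simulated data. The imprinted genes and all lists were chosen with earlier results of these data known. Members with a called difference of at least 1, or a mean of at least 10 TPM in a group, have every library's value, and the others a range. Alternatives were other filters, pseudocounts of 0.1 and 5, 2 rescalings, a fit of only the groups compared, a replicate block and leaving out each library. Promoter letters come from RefSeq (GRCr8). For members whose gene span overlaps another gene (Snrpn, Igf2, Ascl2, Nnat, Blcap, Mcts2 and Nap1l5) reads may be shared with the partner gene. How far was not tested.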

Additional observations from a re-analysis of the deposited data

How the results depend on the processing

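Of the called differences of imprinted genes, 22 of 29 for EpiLC versus ESC, 25 of 28 for PGCLC_d3 versus EpiLC, 23 of 26 for PGCLC_d3ag3 versus PGCLC_d3 and 23 of 25 for PGCLC_d3ag3 versus ESC passed under every alternative that gave a value. Those that did not are named with their values beside the result. The size rule depended on the pseudocount. With a pseudocount of 5, members higher by at least 1 numbered 6 for EpiLC versus ESC and 8 for PGCLC_d3 versus EpiLC, and members lower by at least 1 numbered 4 for PGCLC_d3 versus EpiLC and 5 for PGCLC_d3ag3 versus PGCLC_d3. With a pseudocount of 0.1, those lower by at least 1 numbered 17 for PGCLC_d3ag3 versus PGCLC_d3 and 8 for PGCLC_d3ag3 versus ESC. Either rescaling left 1 member higher by at least 1 in PGCLC_d3ag3 than in PGCLC_d3. Mkrn3 changed sign between EpiLC and PGCLC_d3 with quantile normalization (-0.35). Among these counts, leaving out single libraries moved none by over 1.5 times.

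No label ties replicate numbers to a shared batch, and differences between replicates correlated at -0.04 to 0.07 across groups, so the numbers were used only as names. With a replicate block, 22 members were higher and 6 lower in EpiLC than in ESC, 15 and 14 in PGCLC_d3 than in EpiLC, 4 and 22 in PGCLC_d3ag3 than in PGCLC_d3, and 14 and 11 in PGCLC_d3ag3 than in ESC. Depth was not known, so no limit from counting is given.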

Other observations

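Of 23 further imprinted genes, 22 have a row and 15 were tested, with 5 higher and 6 lower in EpiLC than in ESC, 6 higher and 7 lower in PGCLC_d3 than in EpiLC, and 4 higher and 5 lower in PGCLC_d3ag3 than in PGCLC_d3. These are 73.3%, 86.7% and 60% of the 15, beside 67.3%, 74.9% and 70.4% called of all tested genes. Of all tested genes, 35.4% were higher and 31.8% lower into EpiLC, and 47.3% and 27.6% into PGCLC_d3. Into PGCLC_d3ag3 25.7% were higher and 44.8% lower. The median differences of the 15 were 0.08, -0.05 and -0.07, beside 0.52, 0.18 and -0.71 for the 34 members. Most of the 15 thus neither rose into EpiLC nor fell into PGCLC_d3ag3. Peg12, a paternally expressed gene beside Magel2 and Mkrn3 in the mouse, was at 0.276 and 0.672 in ESC, 3.40 and 2.58 in EpiLC, 17.5 in both PGCLC_d3 libraries, and 3.54 and 3.00 in PGCLC_d3ag3. It was highest in PGCLC_d3, where Magel2 was already lower than in EpiLC. Qpct, a maternally expressed glutaminyl cyclase gene in mouse placenta, read 0.339 and 0.149 in ESC, 0.699 and 1.31 in EpiLC, 11.5 and 16.8 in PGCLC_d3, and 0 and 0.371 in PGCLC_d3ag3, and rose by 2.91 (SE 0.22, adjusted p = 1.45e-06) and fell by 3.67 (SE 0.22, adjusted p = 6.16e-07) at the last steps. Slc38a4, an amino acid transporter gene of the placenta, was at 16.5 and 17.4 in ESC, 2.55 and 2.35 in EpiLC, 12.1 and 12.2 in PGCLC_d3, and 12.8 and 10.3 in PGCLC_d3ag3, low only in EpiLC. Gab1, an adaptor of growth factor receptors, was at 96.95 and 101 in ESC, 83.8 and 74.4 in EpiLC, 17.5 and 18.1 in PGCLC_d3, and 65.6 and 70.6 in PGCLC_d3ag3, and was lowest in PGCLC_d3.

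Neighbours outside the list were read as well. Casd1, next to Sgce, had 2.87 and 5.16 in ESC, 8.65 and 9.32 in EpiLC, 44.3 and 47.8 in PGCLC_d3, and 13.4 and 15.3 in PGCLC_d3ag3. Its highest group was PGCLC_d3, in which Sgce was lower than in EpiLC. Cobl, next to Grb10, fell from 35.7 and 42.9 in ESC to 0.551 and 0.541 in EpiLC, a difference of -4.70 (SE 0.13, adjusted p = 1.78e-09), and stayed under 1 TPM.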
